A study of Mus musculus with 6 samples.

Results

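The Bcl2 family decides at the outer mitochondrial membrane whether a cell lives or dies, and 10 of its genes were followed here in hematopoietic stem cells (HSCs) that lack the ribosomal protein Rpl22. These were Bcl2, Bcl2l1, Mcl1 and Bcl2l2, whose products keep cells alive, Bak1 and Bok, whose products open the membrane, and Bcl2l11, Bad, Bid and Bmf, which encode BH3-only proteins that start the process. They were taken by symbol from the 34573 genes of the count table, and the best known p53 targets of the family, Bax, Bbc3 and Pmaip1, were not among them. The HSCs were lineage-negative CD48-CD150+ cells, sorted by flow cytometry from adult bone marrow of Rpl22-/- and Rpl22+/+ mice. Elsewhere the study also uses Sca-1 and c-Kit to define HSCs, which the description of these samples does not name. Mice were 8 to 12 weeks old and backcrossed to C57BL/6. In the Rpl22-/- group the mutation was carried by every cell of the animal, and the sources give no further allele and no treatment for either group. RNA was sequenced from 3 samples of each genotype, 1 library a sample, and the sources used here do not state whether a sample was 1 mouse or a pool, so p-values measure the spread between these samples. Reads on genes ranged from 9321123 to 13385850 per library.

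In the living cell the guardians Bcl2, Bcl-xL (from Bcl2l1), Mcl1 and Bcl-w (from Bcl2l2) between them bind the effectors Bak and Bax and the BH3-only proteins. Not every guardian holds every partner, and Bak is held in check by Mcl1 and Bcl-xL. When BH3-only proteins outnumber the free guardians, Bak and Bax assemble into pores, cytochrome c leaves the mitochondria, and the apoptosome activates caspases. HSCs are known to depend on Mcl1 for survival. The proteins of the family are also controlled by phosphorylation, cleavage and degradation, which RNA counts do not show.

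The libraries were first set against their labels. Rpl22 measured between 35 and 43.9 CPM (a gene's reads scaled to a common library size) in the Rpl22-/- libraries and between 523 and 562 CPM in the Rpl22+/+ libraries. Of 10 HSC marker genes all were detected, with summed levels of 2167 to 2375 CPM in Rpl22-/- and 2354 to 2405 CPM in Rpl22+/+ HSCs, and 1 of them differed (Fgd5, log2 fold change −0.41, adjusted p = 0.0308 in edgeR). By counts over all genes, Rpl22-/- replicate 1 lay nearer to the Rpl22+/+ libraries (chi-square per degree of freedom 9.45 to 10.6) than did Rpl22-/- replicates 2 and 3 (15.3 to 23.9). Its distances to Rpl22-/- replicates 2 and 3 were 13.9 and 10.2, so it lay no nearer to them than to Rpl22+/+ replicates 2 and 3. Rpl22-/- replicates 2 and 3 were 9.54 apart, and the Rpl22+/+ libraries 4.08 to 6.04. Results are therefore also given with single libraries left out.

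All 10 genes had enough reads for a test. Bak1 and Bcl2l1 were higher and Bmf was lower in Rpl22-/- HSCs when edgeR's quasi-likelihood F test was adjusted over 14004 genes by Benjamini-Hochberg and called at 0.05, and the other 7 did not pass. Over all genes tested 5.57% passed, 3.28% as higher and 2.29% as lower in Rpl22-/- HSCs. The log2 fold changes of the family were positive for 5 genes and negative for 5, and their median was 0.05 against −0.0068 for every gene tested. Positive and negative values were equal in number within the guardians, within the effectors and within the BH3-only genes. For 5 members no library of one genotype overlapped the other genotype, 3 higher and 2 lower in Rpl22-/- HSCs, against 26.9% of all genes tested. One of these 5, Bcl2l2, was separated by less than 0.1 CPM, and with scaling by library size alone the count was 4.

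**Figure D1:**
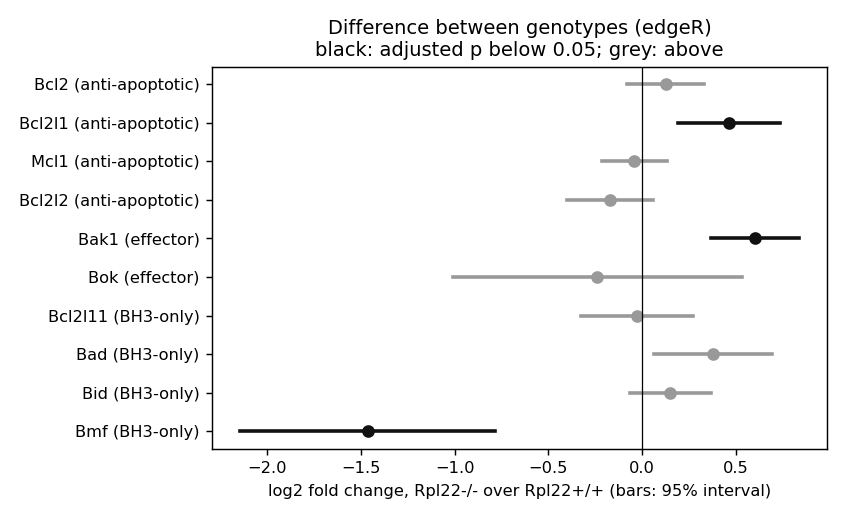
Log2 fold change of each of the 10 genes between Rpl22-/- and Rpl22+/+ HSCs on the horizontal axis, with 95% intervals from edgeR, black where the adjusted p was below 0.05 and grey otherwise. Bak1 at 0.60 and Bcl2l1 at 0.46 lie right of 0 and Bmf at −1.46 lies left of it.

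For the 3 genes that passed, and for Bcl2, which did not, a sequence in front of a transcript start is shown to compare letters. By the gene coordinates given below, the Bak1 and Bmf stretches lie inside the gene, and those of Bcl2l1 and Bcl2 lie outside it. Of 3 windows each, the one at the 5′ end of the gene is given for Bcl2l1 and the one with the most matches for Bmf. Each run is the stretch of 250 bases upstream of a transcript start in RefSeq (GRCm38.p6), 5′ to 3′ on the strand of the gene, and all 4 genes lie on the minus strand. Capitals mark matches on either strand to 7 motifs: the GC box (GGGCGG), the Foxo motif (GTAAACA), the STAT motif (TTCNNNGAA), the Runx motif (TGTGGT), the E-box (CACGTG), the Ets motif (CGGAAGT) and the p53 half-site.
Bak1, chr17:27028628-27028877: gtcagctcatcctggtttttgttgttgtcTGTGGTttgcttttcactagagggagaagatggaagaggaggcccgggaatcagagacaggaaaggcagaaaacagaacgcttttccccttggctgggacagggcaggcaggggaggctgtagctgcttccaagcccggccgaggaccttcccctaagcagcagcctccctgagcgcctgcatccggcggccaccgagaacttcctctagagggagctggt
Bcl2l1, chr2:152831729-152831978: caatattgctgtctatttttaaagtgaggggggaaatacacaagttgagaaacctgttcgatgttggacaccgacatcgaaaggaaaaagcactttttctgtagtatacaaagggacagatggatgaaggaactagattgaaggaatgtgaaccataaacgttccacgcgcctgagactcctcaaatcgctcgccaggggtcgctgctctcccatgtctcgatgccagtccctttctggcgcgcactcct
Bmf, chr2:118547600-118547849: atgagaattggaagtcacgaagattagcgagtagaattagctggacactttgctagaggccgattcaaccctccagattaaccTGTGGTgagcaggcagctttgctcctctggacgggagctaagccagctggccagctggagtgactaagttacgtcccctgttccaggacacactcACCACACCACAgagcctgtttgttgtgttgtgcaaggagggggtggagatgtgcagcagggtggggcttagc
Bcl2, chr1:106714291-106714540: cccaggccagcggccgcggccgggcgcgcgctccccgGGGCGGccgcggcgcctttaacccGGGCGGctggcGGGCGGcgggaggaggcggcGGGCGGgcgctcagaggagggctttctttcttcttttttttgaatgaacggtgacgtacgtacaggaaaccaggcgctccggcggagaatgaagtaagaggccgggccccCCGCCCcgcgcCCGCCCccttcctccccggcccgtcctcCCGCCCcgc

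The Bak1 window held a single match, a Runx motif 221 bases before the start. In the Bcl2l1 window none of the 7 motifs was found. The Bmf window held Runx motifs at 167, 72 and 67 bases before the start, the last 2 of which overlap by 1 base, and another Bmf window, at chr2:118544588-118544837, held a p53 half-site 213 bases before its start. The Bcl2 window held 7 GC boxes, from 213 to 9 bases before the start. All 10 genes were matched in RefSeq, with 16 windows in all. After the values were known it was seen that none of the 7 windows of Bak1, Bcl2l1 and Bmf held a GC box, whereas 8 of the 9 windows of the other members did, at least 1 for each of those 7 genes. Of 32817 such windows of all genes (chromosome 18 not used here), 32.7% held a GC box, 14% a Runx motif, 7.12% a p53 half-site, 7.01% a STAT motif, 6.02% an E-box, 4.91% an Ets motif and 3.16% a Foxo motif. These matches are letters in a window. Binding of a factor was not measured, and the GC box count describes members sorted by their own result, with no test. Most windows of Bak1, Bcl2l1 and Bmf lie inside the gene, unlike most of those of the other members, so the windows differ in position too.

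Among the effectors, Bak1 (ENSMUSG00000057789, GRCm38 chromosome 17, minus strand, 27019810 to 27029009) encodes a pore-forming protein that sits in the mitochondrial membrane of healthy cells, held in check by Mcl1 and Bcl-xL. It was covered by 817, 1052 and 1088 reads in Rpl22-/- HSCs and by 645, 640 and 511 in Rpl22+/+ HSCs, in the order of replicates 1, 2 and 3 that is kept for all values below. That is 63.7, 87.6 and 82.6 CPM against 49.5, 51.4 and 53.2 CPM. Every Rpl22-/- library was above every Rpl22+/+ library, with Rpl22-/- replicate 1 the lowest of its group. The mean rose 1.52-fold, from 51.4 ± 1.81 to 78 ± 12.6 CPM (SD, n = 3 each). The log2 fold change was 0.60 (standard error 0.11, 95% interval 0.37 to 0.84, adjusted p = 0.00792 in edgeR). Without Rpl22-/- replicate 3 it was 0.56 and no longer passed (adjusted p = 0.0591), while it passed in the other 15 of 16 ways of processing.

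The exons of Bak1 share 437 bases, 18.2% of their length, with Ggnbp1 on the opposite strand, and 177 bases (7.35%) with a second gene model of the same symbol. The strand setting of the authors' counting is not stated, so reads there cannot be assigned to either gene with certainty. Ggnbp1 measured 36.1 ± 0.988 CPM (SD, n = 3) in Rpl22-/- and 31.3 ± 1.88 CPM (SD, n = 3) in Rpl22+/+ HSCs, a log2 fold change of 0.21 (adjusted p = 0.27 in edgeR). The other effector, Bok (ENSMUSG00000026278, chromosome 1, plus strand, 93685660 to 93695764), encodes a pore-forming relative of Bak that is removed by the proteasome. Few reads fell on it, 18, 21 and 32 in the Rpl22-/- and 34, 19 and 24 in the Rpl22+/+ libraries. The libraries overlapped (1.86 ± 0.523 and 2.21 ± 0.597 CPM, SD, n = 3 each). The log2 fold change was −0.24 with a 95% interval from −1.01 to 0.53, and no difference was detectable at this depth.

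Bcl2l1 was the guardian that rose. Bcl2l1 (ENSMUSG00000007659, chromosome 2, minus strand, 152780668 to 152831728) encodes Bcl-xL, and a shorter splice form that promotes death. Counts per gene do not part these forms. It was covered by 513, 713 and 619 reads in the Rpl22-/- and 464, 452 and 329 in the Rpl22+/+ libraries, or 40, 59.3 and 47 CPM against 35.6, 36.3 and 34.2 CPM. The Rpl22+/+ libraries lay close together and all below the Rpl22-/- libraries, of which replicate 2 was the highest and replicate 1 the lowest. The means were 48.8 ± 9.8 and 35.4 ± 1.05 CPM (SD, n = 3 each), a 1.38-fold difference (log2 fold change 0.46, standard error 0.128, 95% interval 0.19 to 0.73, adjusted p = 0.047 in edgeR). This adjusted p lies just under 0.05. Among 16 other ways of processing 9 gave a call. Leaving out any single library except Rpl22-/- replicate 1 ended it (log2 fold changes 0.30 to 0.49, adjusted p = 0.117 to 0.178), and 0.30 was the value without Rpl22-/- replicate 2. It also missed the threshold with scaling by library size alone (0.41, adjusted p = 0.0604) and with limma-voom (0.44, adjusted p = 0.0632).

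The other 3 guardians did not pass. Mcl1 (ENSMUSG00000038612, chromosome 3, plus strand, 95658788 to 95663176) encodes a short-lived protein that binds Bak. It measured 180, 178 and 174 CPM in the Rpl22-/- libraries and 186, 172 and 190 CPM in the Rpl22+/+ libraries. The groups overlapped, and the log2 fold change of −0.04 had a 95% interval of −0.21 to 0.13 (adjusted p = 0.806 in edgeR), the narrowest of the family. Bcl2 (ENSMUSG00000057329, chromosome 1, minus strand, 106538178 to 106714274), the founding guardian, measured 136, 139 and 122 CPM in the Rpl22-/- and 105, 130 and 129 CPM in the Rpl22+/+ libraries. Here Rpl22+/+ replicate 1 was the lowest of all 6 libraries and the groups overlapped (log2 fold change 0.13, 95% interval −0.08 to 0.33, adjusted p = 0.476). Of its exonic bases 6.09% are shared with the antisense gene D630008O14Rik. Bcl2l2 (ENSMUSG00000089682, chromosome 14, plus strand, 54883377 to 54888234) encodes Bcl-w, a guardian best known from the testis. It measured 36.7, 31.1 and 34.3 CPM in the Rpl22-/- and 36.7, 40.3 and 38.2 CPM in the Rpl22+/+ libraries, with a log2 fold change of −0.17 (95% interval −0.40 to 0.06, adjusted p = 0.369). Its sign stayed negative in all 16 other ways of processing, where it never passed. The gene model Gm20521 shares 594 bases, 13.3% of the exons of Bcl2l2, on the same strand and was listed at 0 reads in all 6 libraries, and how reads there were divided cannot be told from the counts.

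**Figure D2:**
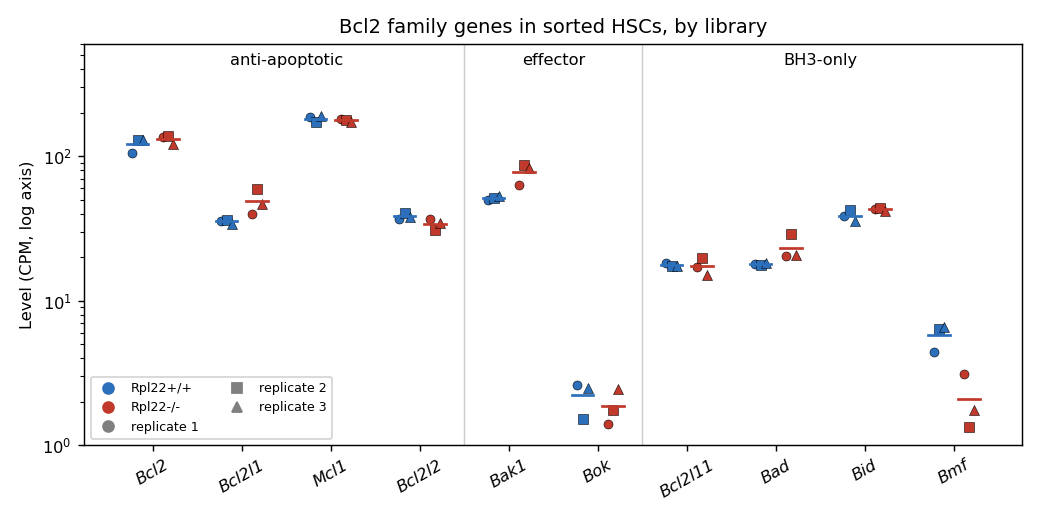
Level of each gene in every library (CPM, log axis), Rpl22+/+ in blue and Rpl22-/- in red, with a line at the mean of each group and a marker shape for each replicate number. The 3 Rpl22-/- libraries lie above the 3 Rpl22+/+ libraries for Bak1, Bcl2l1 and Bad, and below them for Bmf.

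Bmf was the BH3-only gene that fell. Its product is held at the cytoskeleton through a dynein light chain and binds the guardians when released. Bmf (ENSMUSG00000040093, chromosome 2, minus strand, 118528757 to 118549687) had 40, 16 and 23 reads in the Rpl22-/- and 57, 79 and 63 in the Rpl22+/+ libraries. That is 3.12, 1.33 and 1.75 CPM against 4.38, 6.34 and 6.55 CPM. In both genotypes replicate 1 was nearest to the other group, and the groups did not overlap. The means were 2.07 ± 0.935 and 5.76 ± 1.2 CPM (SD, n = 3 each), and the Rpl22-/- level was 0.363 of the Rpl22+/+ level. The log2 fold change of −1.46 (standard error 0.32, 95% interval −2.14 to −0.78, adjusted p = 0.0178 in edgeR) was the largest of the family in size, on the second fewest reads. The call was lost without Rpl22-/- replicate 2 (−1.23, adjusted p = 0.0567), Rpl22-/- replicate 3 (−1.35, 0.0916), Rpl22+/+ replicate 2 (−1.38, 0.0734) or Rpl22+/+ replicate 3 (−1.37, 0.0781), and the value was negative in all 16 other ways of processing.

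**Figure D3:**
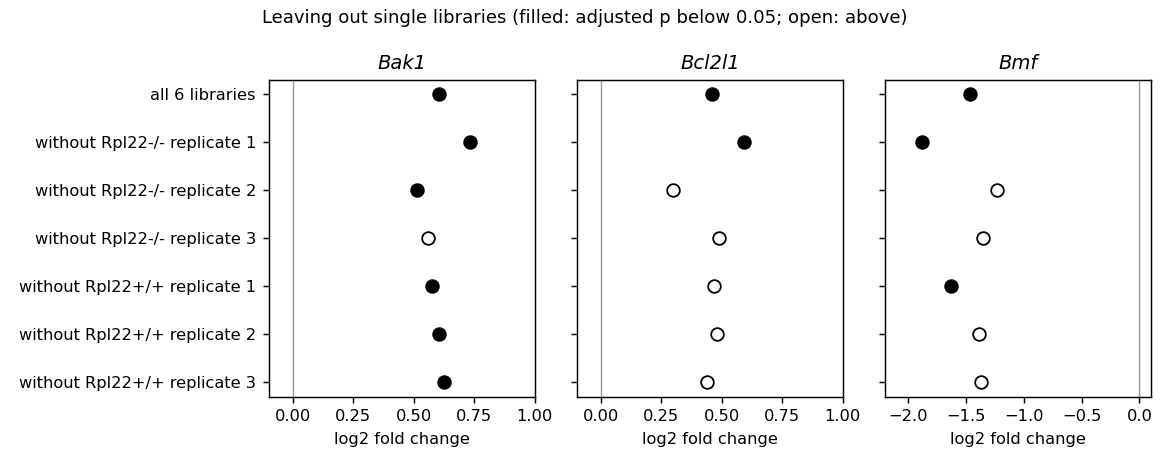
Log2 fold change of Bak1, Bcl2l1 and Bmf (horizontal axes) with all 6 libraries and with each library left out in turn, filled where the adjusted p from edgeR was below 0.05 and open otherwise. The signs did not change, Bak1 stayed filled in 5 of the 6 refits, and Bcl2l1 was filled only without Rpl22-/- replicate 1.

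The remaining BH3-only genes had no call. Bad (ENSMUSG00000024959, chromosome 19, plus strand, 6941861 to 6951899) encodes a protein that growth factor signals switch off by phosphorylation. It measured 20.5, 28.8 and 20.7 CPM in the Rpl22-/- and 17.9, 17.7 and 18.2 CPM in the Rpl22+/+ libraries, so that the groups did not overlap and Rpl22-/- replicate 2 stood above the rest. The log2 fold change was 0.38 (95% interval 0.06 to 0.69, unadjusted p = 0.0214, adjusted p = 0.143 in edgeR), and it passed in none of 16 other ways of processing (adjusted p = 0.0573 to 0.464). Without Rpl22-/- replicate 2 it was 0.20 (unadjusted p = 0.154). Bad shares 524 exonic bases, 20.5% of its length, with Gpr137 on the opposite strand, which measured 26.6 ± 0.148 and 20.7 ± 0.352 CPM (SD, n = 3 each), a log2 fold change of 0.36 (adjusted p = 0.0797). Bid (ENSMUSG00000004446, chromosome 6, minus strand, 120891930 to 120916853), whose product caspase-8 cleaves to link death receptors to mitochondria, measured 43.2, 44 and 41.9 CPM in the Rpl22-/- and 38.3, 42.2 and 35.7 CPM in the Rpl22+/+ libraries. The groups overlapped at Rpl22+/+ replicate 2 (log2 fold change 0.15, 95% interval −0.07 to 0.37, adjusted p = 0.418). Bid shares 17.7% of its exonic bases with Bcl2l13 (log2 fold change 0.04, adjusted p = 0.872). Bcl2l11 (ENSMUSG00000027381, chromosome 2, plus strand, 128126038 to 128162547) encodes Bim, the BH3-only protein that binds all guardians and limits the lifespan of blood cells. It measured 17.1, 19.8 and 15 CPM in the Rpl22-/- and 18.2, 17.3 and 17.4 CPM in the Rpl22+/+ libraries, and the Rpl22+/+ libraries lay inside the range of the Rpl22-/- libraries (log2 fold change −0.03, 95% interval −0.33 to 0.27, adjusted p = 0.935). Its sign changed in 3 of the 16 other ways of processing.

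Levels of different genes were compared per length, as CPM per kilobase of annotated exon. The length is that of all annotated exons merged, not of the transcripts present, and the annotation used for counting is not known. Reads in exons shared with overlapping genes may not have been counted, so the order of genes and ratios between them are approximate. In Rpl22+/+ HSCs Mcl1 was the most abundant at 53.5 ± 2.71, followed by Bak1 at 21.3 ± 0.752, Bcl2 at 13.3 ± 1.52, Bid at 10.9 ± 0.927, Bcl2l2 at 8.61 ± 0.403, Bcl2l1 at 7.72 ± 0.229, Bad at 7.02 ± 0.0934, Bcl2l11 at 2.19 ± 0.0644, Bok at 1.2 ± 0.325 and Bmf at 1.1 ± 0.228 CPM per kilobase (SD, n = 3). Neighbours in this order whose libraries overlapped were Bcl2 and Bid, and Bok and Bmf. In Rpl22-/- HSCs the first 4 places and the last 3 were held by the same genes, and Bcl2l1 (10.6 ± 2.14) and Bad (9.13 ± 1.85) had higher means than Bcl2l2 (7.63 ± 0.628). There the libraries of Bcl2l1 overlapped those of Bid and of Bad, and those of Bad overlapped those of Bcl2l2. Mcl1 made up 42.2% of the summed level of the 10 genes in Rpl22+/+ and 36.7% in Rpl22-/- HSCs, and Bak1 16.8% and 22.8%.

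The summed level of the 4 guardians was 83 ± 2.25 CPM per kilobase in Rpl22+/+ and 84.6 ± 2.5 in Rpl22-/- HSCs (SD, n = 3 each), a difference within the spread of the libraries. That of the 6 other members was 43.8 ± 0.775 and 57.2 ± 6.82 CPM per kilobase. Most of the latter difference lay in the effectors, at 22.5 ± 0.789 and 33.4 ± 5.42 CPM per kilobase, of which Bak1 was the larger part, and less in the BH3-only genes, at 21.2 ± 0.852 and 23.8 ± 2.28. The ratio of guardian to pro-death RNA was 1.91, 1.84 and 1.94 in the Rpl22+/+ and 1.68, 1.37 and 1.42 in the Rpl22-/- libraries, so that each Rpl22-/- library was below each Rpl22+/+ library. On the log2 scale the difference was −0.35, given as a description of these genes with no test. Without Mcl1 among the guardians it was −0.23. The ratio of Mcl1 to Bak1, its partner, was 2.65, 2.36 and 2.51 in the Rpl22+/+ and 1.99, 1.43 and 1.48 in the Rpl22-/- libraries. That of Bcl2l1 to Bak1, in which both genes rose, was 0.362 ± 0.0212 and 0.328 ± 0.0286 (SD, n = 3 each), with overlapping libraries. The p53 targets Bax, Bbc3 and Pmaip1 were also added to the pro-death side, a choice made after the values were seen. The ratio was then 1.13, 1.16 and 1.24 in the Rpl22+/+ and 0.847, 0.768 and 0.845 in the Rpl22-/- libraries. Bax and Bbc3 had been called higher in Rpl22-/- HSCs, so the direction of this change was fixed in advance.

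**Figure D4:**
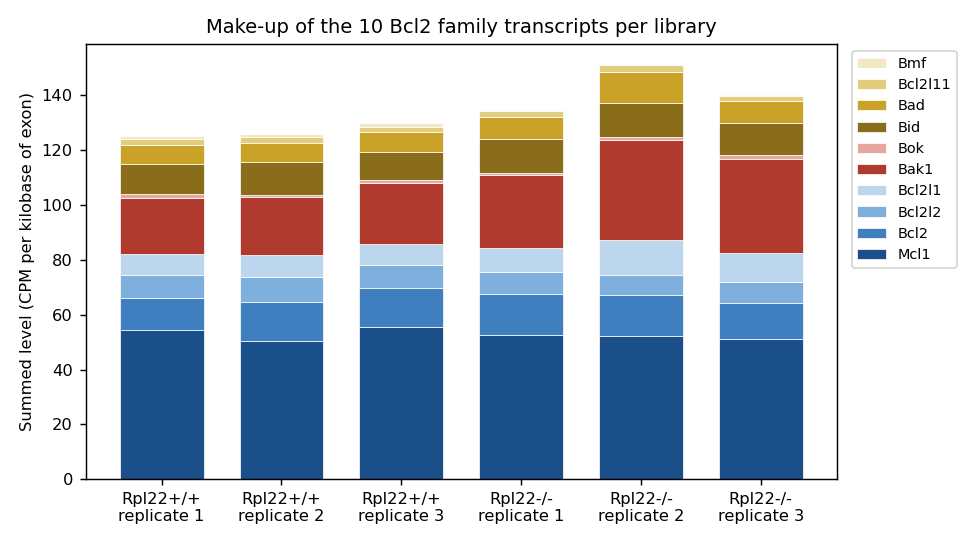
Summed level of the 10 genes in each library (CPM per kilobase of exon), guardians in blue, effectors in red and BH3-only genes in brown. The blue part lies between 81.5 and 87.2 in all 6 libraries, while the red part is 22 to 23.4 in the Rpl22+/+ and 27.2 to 37.3 in the Rpl22-/- libraries.

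The spread between libraries differed by gene. For Bak1, Bcl2l1 and Bad the coefficient of variation was 16.2%, 20.1% and 20.2% in Rpl22-/- and 3.52%, 2.96% and 1.33% in Rpl22+/+ HSCs. In all 3 genes Rpl22-/- replicate 2 was the highest of the 6 libraries. Across the 6 libraries Bcl2l1 and Bad followed Bak1 with Pearson correlations of 0.94 and 0.86, and Bcl2l2 ran against it at −0.88. These correlations hold the difference of genotype within them and are given as a description. Among 10645 genes with an average log2 CPM of at least 3, the most like Bak1 over the 6 libraries were Hcfc1, Akt2 and Pigk, with correlations of 0.996, 0.994 and 0.993 and log2 fold changes of 0.27, 0.19 and 0.32, none of which passed (adjusted p = 0.0768, 0.175 and 0.0568 in edgeR). They are the top of a ranking of 10645 genes on 6 libraries, which also holds the difference of genotype, so their correlations are a description with no test.

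Markers of other cells were measured in the same libraries, since a sort can hold other cell types and, in a bulk sample, fewer cells of a type and less RNA per cell cannot be told apart. By the study's methods, cells bearing Gr-1, CD11b, B220, Ter119 or CD3, markers of mature myeloid, B, erythroid and T cells, were depleted with magnetic beads before sorting. The 8 neutrophil and myeloid granule markers summed to 106, 220 and 93.4 CPM in the Rpl22-/- and to 81.9, 66.6 and 106 CPM in the Rpl22+/+ libraries, so their peak was in the library with the highest Bak1, Bcl2l1 and Bad. In that library Mpo measured 101 CPM, against 13.9 and 17.1 CPM in Rpl22-/- replicates 1 and 3. Elane and Ctsg peaked there too, while Prtn3 did not (72.7 CPM against 73.2 and 55). Of 7 tested, 6 had positive log2 fold changes, with a median of 1.43. In edgeR 1 passed as higher (Ctsg, log2 fold change 2.85, adjusted p = 0.0282). Mpo (2.32, adjusted p = 0.0642) and Elane (2.24, adjusted p = 0.097) did not pass, and the defining marker Ly6g had at most 3 reads. The 6 megakaryocyte markers summed to 1236, 1123 and 972 CPM in the Rpl22-/- and to 728, 923 and 701 CPM in the Rpl22+/+ libraries, and 4 of 6 were higher (Pf4, Gp1bb, Gp9 and Itga2b, log2 fold changes 0.46 to 0.82). Most of this sum was Itga2b (579 ± 45.2 and 407 ± 47.3 CPM) and Vwf (272 ± 42.4 and 215 ± 35.3 CPM, SD, n = 3 each). Whether this RNA came from the HSCs or from other cells cannot be told from the counts. The part of these markers in the result of Bak1 and Bcl2l1 was not tested. B cell markers summed to 24.6 to 28.2 and 21.2 to 23.4 CPM, nearly all of it Cd79b with Ms4a1 at 0, and T cell markers to 13.1 to 16.5 and 12.8 to 15.5 CPM with Cd3e at 0. Of 6 erythroid markers in the table, summing to 29.1 to 35.2 and 30.8 to 39.9 CPM, Car1 was lower (adjusted p = 0.0246) and 2 others tested did not pass. Without Rpl22-/- replicate 2, the library with the peak of granule markers, the log2 fold change was 0.51 for Bak1 (adjusted p = 0.0291), 0.30 for Bcl2l1 (adjusted p = 0.178), 0.20 for Bad (adjusted p = 0.464) and −1.23 for Bmf (adjusted p = 0.0567).

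The genes around the family were read from 5 lists with 56 genes, of which 49 were tested. In the edgeR test 3 of these were higher and 1 was lower in Rpl22-/- HSCs, while 5.57% of all genes tested passed, so that the count of 4 among 49 is near the background and is not a result about these lists. Their median log2 fold change was 0.03. The count of 4 became 11 without Rpl22-/- replicate 1 and 2 without any other single library. Over all genes, 780 of 14004 passed with all libraries and 1720 of 14243 without Rpl22-/- replicate 1. Without any other single library 127 to 370 of 14235 to 14293 passed, so the listed count moved with that of all genes. Among 8 other Bcl2 family genes tested 2 rose. Bax, the second effector, rose from 36.7 ± 4.24 to 61.9 ± 9.59 CPM (SD, n = 3 each), and Bbc3, which encodes the BH3-only protein Puma, from 6.95 ± 0.521 to 14.1 ± 0.865 CPM. Their log2 fold changes were 0.75 (adjusted p = 0.00444) and 1.02 (adjusted p = 0.00435), and both passed in all 16 other ways of processing. Bax and Bak1, the effectors that can stand in for each other, were thus both higher. The list's median was 0.43, with 6 genes not called in edgeR, among them Pmaip1, which encodes Noxa (1.06, adjusted p = 0.387, on 1 to 26 reads per library), Bcl2l12 (0.34, adjusted p = 0.051) and Bnip3l (−0.27, adjusted p = 0.1). DESeq2, which called 1039 of all 14004 genes, also called Bcl2l12.

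Downstream of the mitochondria, Htra2 was the 1 gene of 13 for the apoptosome, the caspases and their partners that passed. Htra2, a mitochondrial protease that antagonises inhibitors of apoptosis when released, measured 106 ± 3.83 and 85.3 ± 5.04 CPM (SD, n = 3 each; log2 fold change 0.31, adjusted p = 0.0429 in edgeR). The initiators Casp9 (−0.33, adjusted p = 0.173) and Casp2 (−0.26, adjusted p = 0.0705) did not pass in edgeR, while DESeq2 called Casp2 as well as Htra2. The list's median was 0.02. Xiap, which encodes the inhibitor that binds active caspases, was the 1 gene of 5 inhibitors that passed and was lower, at 125 ± 3.63 and 153 ± 3.48 CPM (log2 fold change −0.30, adjusted p = 0.0394). Birc2 (−0.34, adjusted p = 0.0578), a ubiquitin ligase of the same family, and Birc5 (0.30, adjusted p = 0.119), which encodes survivin of the dividing cell, did not pass in edgeR. DESeq2 called Birc2 as well as Xiap, and the list's median was −0.16. With 1 library left out, Htra2 and Xiap both passed only without Rpl22-/- replicate 1, and over 16 ways of processing they passed in 8 and 9.

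None of 7 death receptor genes passed in the edgeR test, and DESeq2 and limma-voom called 0. The smallest p-values were those of the receptor gene Tnfrsf10b (0.35, adjusted p = 0.192), Cflar, which restrains caspase-8 (−0.13, adjusted p = 0.402), and the adaptor gene Fadd (0.23, adjusted p = 0.475), with a list median of 0.09. Of 16 genes that regulate or bind the members none passed. DESeq2, which called 1039 of all 14004 genes, called 1 of them, Stat5a, and limma-voom 0. The log2 fold change of Stat5a, a transcription factor known to raise Bcl2l1, was 0.29 (adjusted p = 0.0745), that of Trp53, which encodes p53, 0.25 (adjusted p = 0.104), and that of Usp9x, whose product protects Mcl1 from degradation, −0.21 (adjusted p = 0.14). The list's median was 0.03.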

How the data were processed

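HSC RNA was sequenced from 3 Rpl22-/- and 3 Rpl22+/+ samples, grouped by their labels. Libraries were made with a TruSeq kit. After a FastQC check, the authors aligned reads to mm10 with TopHat2 (2.1.1 per the submitters' processing notes) and deposited HTSeq counts per gene, whole numbers without normalization. The annotation and strand setting are not given in the sources used here. Reads HTSeq put on no gene, 58.63% to 60.87% of each library, were left out. No per-sample column was left unused (0). Precision rests on 3 libraries a group, so an exact permutation test of 3 against 3 cannot give a two-sided p under 0.1.

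The main test was edgeR 4.0.16 (R 4.3.3), with TMM factors, filterByExpr at a minimum count of 10, the quasi-likelihood test and Benjamini-Hochberg adjustment over 14004 genes, at an adjusted p of 0.05. The study's own test, DESeq2 (here 1.42.0), was an alternative, as were limma-voom (limma 3.58.1), other scaling factors, other filters, each library left out, a term for replicate number and removal of the trend on gene length (lowess, span 0.3, 13352 genes). The tests were tested on simulated data first. Exon lengths and positions came from GENCODE M21 (GRCm38), in which 30934 of 34573 symbols were matched. Transcripts were aligned with BLAST for copies: at 90% identity over 100 bases, only Mcl1 had a copy outside an overlapping gene, Gm20432. Promoter windows came from RefSeq. Other steps used Python 3.11.15 and pandas 2.3.3.

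The members and lists were chosen with earlier results of these data known. Genes named are all members, Rpl22, every other listed gene that passed or otherwise the 3 of smallest p per list, and the 3 most like the member of smallest p. Genes that overlap a member, and markers, were named beside the results they touch.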

Additional observations from a re-analysis of the deposited data

How the results depend on the processing

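Bak1 kept its call in 15 of 16 other ways of processing (log2 fold changes 0.51 to 0.73), Bmf in 12 (−1.88 to −1.23) and Bcl2l1 in 9 (0.30 to 0.59), and none changed sign. The number of members called was 3 with most settings and 2 with library size alone or limma-voom. Leaving out 1 library gave 0 (without Rpl22-/- replicate 3) to 3 (without Rpl22-/- replicate 1) members, 2 to 11 of the listed genes around them and 127 to 1720 of all genes, with 780 for all 6 libraries. With no filter on low counts 1422 genes were called in all and 8 listed genes instead of 4, and DESeq2 also gave 8. DESeq2 called 1039 of all genes. Library size alone gave 850 genes, with 43.4% higher in the Rpl22-/- group against 58.8% with TMM, and moved the median of all genes from −0.0068 to −0.051. The cause was not tested. The log2 ratio of guardian to pro-death RNA differed by −0.35, by −0.23 without Mcl1, by −0.25 without gene length and by −0.44 to −0.29 with 1 library left out. With Bax, Bbc3 and Pmaip1 added after the data were seen it differed by −0.52. That value is no check, since Bax and Bbc3 were already called higher in Rpl22-/- HSCs. Samples with the same replicate number did not deviate together (correlations −0.103, 0.0549 and 0.0448). No pairing by number was seen, but 3 libraries a group are too few to decide whether there was one. With a replicate block 3 members, 5 listed genes and 904 of all genes were called, with Bak1 at 0.59 (adjusted p = 0.00286), Bcl2l1 at 0.45 (0.0301) and Bmf at −1.49 (0.0159). Depth limits Bok and Bmf most, with 16 to 79 reads per library.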

Other observations

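Some members of the wider Bcl2 family were at or near the lower limit of these libraries and were not tested. Hrk and Bcl2l10 had 0 reads in all 6 libraries. The 3 Bcl2a1 genes listed, which encode the guardian A1 in near-identical copies, had at most 3 reads in any library. Bik, which encodes a BH3-only protein, had 3, 6 and 2 reads in the Rpl22-/- and 3, 11 and 2 in the Rpl22+/+ libraries, and Bcl2l15 had at most 6. Reads that fit several copies may not have been counted, so the low counts of the Bcl2a1 genes set no upper limit on their RNA.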
